A study of Mus musculus with 2 samples.

Results

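Solute carriers are membrane proteins that move sugars, amino acids, ions, metals, vitamins, nucleosides and organic acids or bases across cell and organelle membranes. They are named by family number, so that Slc2 carriers take up glucose and related sugars, Slc7 and Slc38 carriers move amino acids, Slc16 carriers move lactate and other monocarboxylates, and Slc25 carriers sit in the inner mitochondrial membrane. Tumours are known for a high uptake of glucose and glutamine and a high release of lactate, whereas hepatocytes and the colonic epithelium each carry characteristic sets of these transporters.

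The members are all genes whose current symbol has the form Slc, a family number, a letter and a member number, and that had a value on both arrays. There were 262 of them among the 13506 named genes measured on both arrays. In all, 330 such genes had a probe, of which 17 were read only on array 1, 16 only on array 2 and 35 by neither array. Every measured member was read by 1 probe. The symbols of 38 members were updated from older names, for example Pqlc2, now Slc66a1. The name pattern also takes in 5 genes that are not carriers, the antisense or opposite-strand genes Slc6a19os and Slc7a6os, the scaffolds Slc9a3r1 and Slc9a3r2 and the adaptor Slc4a1ap.

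The liver metastases and the primary tumours came from Colon26, a single mouse colon carcinoma line, which was placed under the mucosa of the rectum in Balb/c mice. Each of 2 arrays held 1 liver metastasis (Cy3) and 1 primary tumour (Cy5), grown and harvested independently of those on the other array. The labels speak of RNA of the Colon26 cells, and no step that separates them from host cells is given in the sources used here. Each value is a log ratio of both channels, taken as log2. The sources do not give the numerator, so positive and negative are the sides of the ratio and neither is assigned to the metastasis or the tumour. Both arrays had the same dye orientation, so a dye bias of a probe cannot be told apart from a difference between the tissues. In bulk RNA, fewer cells of a type and less RNA per cell cannot be told apart either.

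The solute carriers spread over both sides of the ratio much as the other genes did. Their median was -0.03 (array 1, -0.01; array 2, -0.05), close to the -0.02 found over all genes. Of the 262 genes, 86 were positive on both arrays (32.8%, against 33.9% of all genes), 96 were negative on both (36.6%, against 38.2%) and 80 had mixed signs. In limma's moderated test, 5 members passed an adjusted p of 0.05 over all genes. That is 1.91% of the members, while 2.9% of all genes passed. On the positive side 3 passed, against a background of 2.12%, and on the negative side 2 passed, against 0.777%. An unadjusted p under 0.05 was met by 72 members (27.5%), the share over all genes also being 27.5%. A distance of 1 log2 unit or more, held by each array, was reached by 3 positive members, with 1.69% of all genes doing so, and by 1 negative member, with 0.578% of all genes. Neither the calls nor the median set the carriers apart from other genes. Of the called genes, Slc38a1 stayed called in 6 of the 8 alternative settings that could change a call, Slc2a6 in 4, Slc15a2 and Slc6a7 in 1 each (centring) and Slc24a2 in 0. Limma called 0 carriers after quantile normalization or without moderation, with 71 and 33 at an unadjusted p under 0.05.

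Taken across the members (genes, not replicates), the values of arrays 1 and 2 had a Pearson's r of 0.601 and a Spearman's rho of 0.555. Over all genes these were 0.615 and 0.582, and each pair of values shares the array's labelling and normalization. The arrays lay a median of 0.26 log2 units apart for a carrier and 0.25 for any gene. A gap of at least 1 unit was seen for 11 of the 262 carriers and for 677 of all 13506 genes. Slc7a11, the cystine and glutamate exchanger, was on opposite sides, with 0.66 on array 1 and -0.92 on array 2. Slc30a1, a zinc exporter of the plasma membrane, had 1.13 and -0.11, and Slc44a3 had 0.14 and -1.25. For these genes the arrays give no common side.

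**Figure D1:**
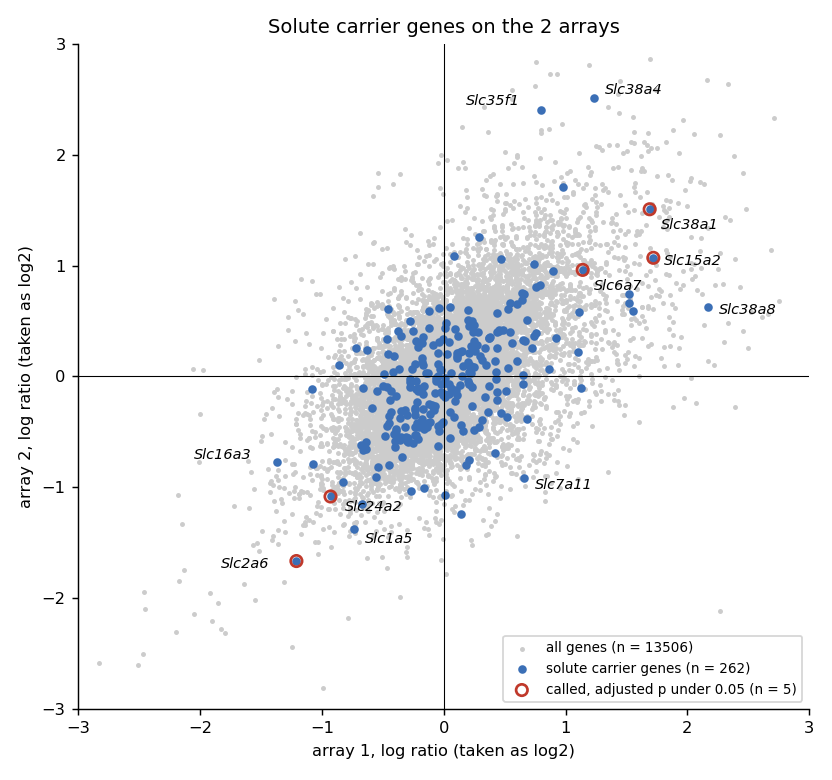
Log ratio (taken as log2) of each gene on array 1 (x axis) and array 2 (y axis), with all 13506 genes in grey, the 262 solute carriers in blue and the 5 called carriers ringed in red. The axes stop at 3 on each side, beyond which lie 20 genes and 0 carriers. The called carriers lie at the edge of the blue cloud, 3 on the positive and 2 on the negative side, and Slc7a11 lies in the quadrant where the arrays disagree.

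Promoters are shown for a called sugar carrier, a called peptide carrier and the pair of glucose and lactate carriers that were both negative. Each is the 250 bases before the annotated start site from RefSeq on GRCm38.p6, written 5′ to 3′ on the gene's strand. Capitals mark the core of the hypoxia response element, searched as ACGTG and GCGTG on both strands, so that CACGT and CACGC also count. The E-box CACGTG, bound by other factors, contains ACGTG and would be marked too. Of all 32851 promoters of this length, 38.6% hold at least 1 such core, so a match is common and only describes the sequence.
Slc2a6 (chr2:27027999-27028248, minus strand): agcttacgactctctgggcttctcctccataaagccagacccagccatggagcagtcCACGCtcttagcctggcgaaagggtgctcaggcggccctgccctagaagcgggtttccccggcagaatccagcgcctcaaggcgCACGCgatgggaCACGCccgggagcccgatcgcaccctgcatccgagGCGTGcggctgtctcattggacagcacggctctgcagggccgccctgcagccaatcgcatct
Slc15a2 (chr16:36784963-36785212, minus strand): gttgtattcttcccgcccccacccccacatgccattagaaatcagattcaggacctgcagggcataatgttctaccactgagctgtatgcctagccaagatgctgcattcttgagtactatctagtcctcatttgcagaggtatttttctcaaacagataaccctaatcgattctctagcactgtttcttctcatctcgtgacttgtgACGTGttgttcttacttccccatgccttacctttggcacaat
Slc2a1 (chr4:119108495-119108744, plus strand): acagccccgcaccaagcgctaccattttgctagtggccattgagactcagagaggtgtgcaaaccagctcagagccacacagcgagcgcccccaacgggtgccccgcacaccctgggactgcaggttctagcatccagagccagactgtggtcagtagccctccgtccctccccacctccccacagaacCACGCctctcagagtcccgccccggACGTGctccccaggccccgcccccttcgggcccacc
Slc16a3 (chr11:120948817-120949066, plus strand): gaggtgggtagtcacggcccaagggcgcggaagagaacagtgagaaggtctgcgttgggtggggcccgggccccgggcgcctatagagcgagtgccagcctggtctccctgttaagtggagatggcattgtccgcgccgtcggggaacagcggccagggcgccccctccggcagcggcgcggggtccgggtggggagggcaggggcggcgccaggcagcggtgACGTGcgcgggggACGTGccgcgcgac
The windows of Slc2a6, Slc15a2, Slc2a1 and Slc16a3 held 4, 1, 2 and 2 cores. The 2 start sites listed for Slc24a2, also a called carrier, held 1 and 0 cores and are not printed. No window is given here for the called carriers Slc38a1 and Slc6a7. Of 271 promoters of measured carriers, 48.0% hold a core, and the difference from all promoters was not tested. Of the 262 members, 204 matched a promoter entry.

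Among 21 carriers of glucose and other sugars, 12 were negative on both arrays (57.1%, against 38.2% of all genes), 6 were positive on both and 3 had mixed signs. An unadjusted p under 0.05 was met by 4 of them, a lower share than the 27.5% of all genes, and the sign count was not tested. The median of the class was -0.25 (array 1, -0.20; array 2, -0.13). Slc2a6, a hexose carrier of internal membranes, had -1.21 on array 1 and -1.67 on array 2. Its mean of -1.44 ± 0.32 (SD, n = 2) corresponds to 2.71-fold if the base is 2, and it passed in limma's test (adjusted p = 0.0398, 95% interval from -1.90 to -0.97). It was the 1 called member of the class and the carrier farthest from 0 on the negative side.

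Slc2a1, the basal glucose transporter of most cells and a hypoxia target, had -1.07 and -0.79 and missed the threshold (limma adjusted p = 0.0565). Slc5a1, the sodium-coupled glucose transporter of the gut, had -0.64 and -0.59 (limma adjusted p = 0.0928). Both arrays put these genes on the side of Slc2a6. The fructose carrier Slc2a5 had -0.55 and -0.13, Slc2a8 -0.39 and -0.18, and Slc2a12 -0.29 and -0.59. Of the 7 Slc2 genes measured on both arrays, 5 were negative on both (71.4%, against 38.2% of all genes). Slc2a4, the insulin-responsive carrier of muscle and fat, was the 1 positive on both, with 0.28 and 0.40, and Slc2a9, a urate carrier, had mixed signs with -0.37 and 0.07. These counts leave out the Slc2 genes read on 1 array only, which were positive. Slc2a10 and Slc2a2 had 1.55 and 1.56 on array 2, and Slc2a3 had 0.41 on array 1. Slc37a4, which brings glucose 6-phosphate into the endoplasmic reticulum in liver, had -0.44 and -0.21. On the other side lay Slc50a1 with 0.20 and 0.60 and Slc45a3 with 0.37 and 0.35, and neither passed.

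Lactate and other monocarboxylates leave and enter cells through Slc16 carriers. Slc16a3, the lactate exporter induced by low oxygen, had -1.37 on array 1 and -0.78 on array 2, a mean of -1.07 ± 0.42 (SD, n = 2) that missed the threshold (limma adjusted p = 0.0616). Slc16a7 had -0.68 and -0.62. In contrast Slc16a1, the widely made monocarboxylate carrier, had mixed signs with 0.34 and -0.19. Bsg, the chaperone that brings Slc16a1 and Slc16a3 to the membrane, had -0.16 and -0.20. Slc16a14, an orphan of the family, was positive with 1.52 and 0.74 (limma adjusted p = 0.0706). Both arrays placed 5 of the 10 measured Slc16 genes on the negative side (50.0%, against 38.2% of all genes). On the positive side lay 3 (30.0%, against 33.9%). An unadjusted p under 0.05 was met by 6 of the 10 (60.0%, against 27.5%), and limma called 0. In the list of carriers known to respond to hypoxia, 3 of 5 were measured (Slc2a1, Slc16a3 and Slc6a8, the creatine carrier, with -0.28 and -0.02). All 3 were negative on both arrays (38.2% of all genes were) with a median of -0.93. None passed the adjusted threshold in limma's test (0 of 3), and 2 had an unadjusted p under 0.05 (27.5% of all genes did). Hif1a, listed among the partners and regulators of carriers, had mixed signs with -0.20 and 0.02.

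Amino acid carriers held values far from 0 on both sides. Both arrays put 13 of the 35 on the positive and 10 on the negative side, 12 had mixed signs, and the class median was 0.04. Slc38a1, a sodium-coupled carrier of glutamine and other small neutral amino acids, had 1.69 on array 1 and 1.51 on array 2. Its mean was 1.60 ± 0.13 (SD, n = 2), a 3.03-fold ratio if the base is 2 (limma adjusted p = 0.0283). Slc6a7, the proline carrier known from brain synapses, had 1.14 and 0.96 and also passed, with a mean of 1.05 ± 0.13 (limma adjusted p = 0.0475). These were the 2 called genes of the class, 5.71% of its 35 members against 2.9% of all genes. An unadjusted p under 0.05 was met by 12 members (34.3%, against 27.5%).

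The Slc38 family did not lie together. Slc38a4, a carrier of the same transport system as Slc38a1 and known from liver, had 1.23 and 2.51. With a mean of 1.87 ± 0.91 (SD, n = 2) it lay farther from 0 than any other carrier measured on both arrays, yet the arrays differed and it missed the threshold (limma adjusted p = 0.0556). Slc38a2, the remaining carrier of that system, had 0.16 and 0.09. Slc38a8 had 2.17 on array 1 and 0.63 on array 2. The system N carriers Slc38a3, known from hepatocytes that surround the central vein, and Slc38a5 had -0.24 and -0.35, and -0.24 and 0.11. Slc38a11 had -0.36 and -0.38. Slc36a1, the proton-coupled amino acid carrier of lysosomes, was close on both arrays at 0.79 and 0.83 (limma adjusted p = 0.0616).

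Slc1a5 and Slc7a5 were negative on both arrays, and neither passed. Slc1a5, a glutamine exchanger, had -0.74 and -1.37, a mean of -1.06 ± 0.45 (SD, n = 2; limma adjusted p = 0.0662). Slc7a5, the light chain of the large neutral amino acid exchanger, had -0.67 and -1.16 (limma adjusted p = 0.0706). Slc3a2, the heavy chain that pairs with Slc7a5 and Slc7a11, had 0.01 on array 1 and -1.08 on array 2. Only array 2 therefore put the heavy chain on the side of Slc7a5. Both genes belong to the list of carriers induced through Atf4, the transcription factor of the amino acid response, of which 10 of 11 were measured. In that list 4 lay on the negative and 2 on the positive side in each array, and 4 were mixed. Limma's count of calls was 0, and 3 members had an unadjusted p under 0.05. The list's median stood at 0.00 on array 1 against -0.71 on array 2, while Atf4 itself had -0.55 and -0.47. Slc43a1, a carrier of branched amino acids, lay opposite to Slc7a5 with 0.74 and 0.36.

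Among the 3 measured peptide carriers, Slc15a2, the high-affinity peptide transporter, had 1.72 on array 1 and 1.07 on array 2. It was called at a mean of 1.40 ± 0.46 (SD, n = 2; limma adjusted p = 0.0475), a 2.63-fold ratio if the base is 2. The lysosomal carriers Slc15a3 and Slc15a4 had -0.46 and 0.20, and -0.23 and -0.12. So the call concerns 1 carrier of the family.

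**Figure D2:**
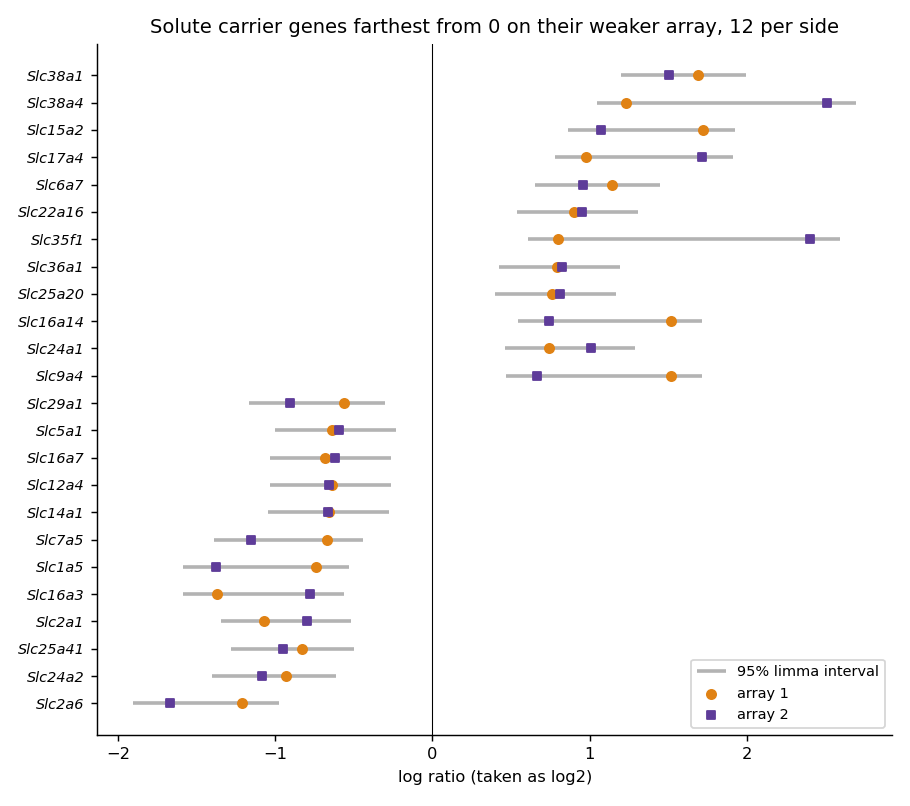
Log ratio (taken as log2, x axis) on array 1 (circles) and array 2 (squares) of the 12 solute carriers per side that lay farthest from 0 on their weaker array, with the 95% limma interval of the mean in grey. Slc38a1, at 1.69 and 1.51, and Slc2a6, at -1.21 and -1.67, head the sides, while Slc38a4 and Slc35f1 show the widest gaps between the arrays.

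Carriers of inorganic ions had no common side. Of 38, 12 were positive and 14 negative on both arrays, with a median of -0.03. Slc24a2, a potassium-dependent sodium and calcium exchanger of neurons, had -0.93 and -1.08. Its mean of -1.01 ± 0.11 (SD, n = 2) was called (limma adjusted p = 0.0475). The related exchangers Slc24a1, known from rod photoreceptors, and Slc24a5, known from pigment cells, lay on the other side with 0.74 and 1.01, and 0.66 and 0.75. The sodium and calcium exchangers Slc8a1 and Slc8a3 had -0.45 and -0.42, and -0.54 and -0.82. Thus the calcium exchangers divided between the sides.

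Among the sodium and proton exchangers, Slc9a4, known from gastric parietal cells, had 1.52 and 0.66 (limma adjusted p = 0.0825), and Slc9a3, of the gut brush border, 0.64 and 0.69 (limma adjusted p = 0.0853). Slc9a2 had 0.04 and -0.16. Pdzk1, a scaffold of brush border carriers, had 0.71 and 0.86, and the scaffold Slc9a3r1 had 0.37 and 0.35. The scaffold Slc9a3r2 lay on the other side with -0.43 and -0.33. Of the cation and chloride cotransporters, Slc12a4, which exports potassium with chloride, was nearly equal on both arrays at -0.64 and -0.66, and Slc12a2 had -0.43 and -0.13. These exchangers, scaffolds and cotransporters all missed the adjusted threshold.

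Metal carriers kept closer to 0, with mean ratios between -0.44 and 0.70. Limma called 0 of 27, with 5 at an unadjusted p under 0.05. Slc39a8, an importer of zinc and manganese, had 0.64 and 0.76, and Slc11a1, the metal exporter of phagosomes in macrophages, 0.53 and 0.61. Slc39a14, a zinc and iron importer of hepatocytes, had -0.32 and -0.46. Slc40a1, the iron exporter ferroportin, had 0.31 on array 1 and -0.39 on array 2, so no side can be given for it.

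Organic anion and cation carriers had a median of 0.08 over 35 genes. On both arrays 14 were positive and 12 negative. Limma called 0, while 15 (42.9%) had an unadjusted p under 0.05, against 27.5% of all genes. Slc17a4, an organic anion carrier of the gut, had 0.98 and 1.71 (limma adjusted p = 0.0527), and Slc22a16, a carnitine carrier, 0.90 and 0.95 (limma adjusted p = 0.0514). Slc47a1, which extrudes organic cations into bile and urine, had 1.11 and 0.58, and Slc22a2, an organic cation carrier known from kidney, 0.92 and 0.35. On the other side lay Slc16a3 and Slc16a7. Slc10a1, the bile acid uptake carrier of hepatocytes, had -0.05 and -0.45. The bile acid exporter subunits Slc51a and Slc51b, whose symbols fall outside the naming rule, had 0.87 and 2.73, and 0.99 and 0.44, and neither passed.

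The 41 mitochondrial Slc25 carriers were balanced, with 14 positive and 14 negative on both arrays and a median of -0.01. Limma called 0, and 11 had an unadjusted p under 0.05. Slc25a20, which exchanges carnitine and acylcarnitine for fatty acid oxidation, had 0.76 and 0.81 (limma adjusted p = 0.0645), and Slc25a40 had 0.60 and 0.65. Slc25a41, a carrier of ATP-Mg and phosphate, lay opposite with -0.83 and -0.95 (limma adjusted p = 0.0554). Of the ADP and ATP exchangers, Slc25a4, the form of heart and muscle, had -0.45 and -0.80, and Slc25a5 had 0.21 and -0.06. The phosphate carrier Slc25a3 had -0.05 and 0.21, and the citrate carrier Slc25a1, which supplies the cytosol for fatty acid synthesis, -0.36 and -0.57. Slc25a28, a mitochondrial iron importer, had -0.40 and -0.64, while Slc25a37, listed with red cells, had mixed signs with -0.25 and 0.41.

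The remaining classes were small or close to 0. The 21 members of the Slc35 family, most of which bring nucleotide sugars into the Golgi and endoplasmic reticulum, had a median of -0.06. Slc35f1, an orphan of the family, had 0.80 on array 1 and 2.40 on array 2. Slc35d2 had 0.47 and 1.06. Of 5 nucleoside and nucleobase carriers, 2 were negative and 0 positive on both arrays, among them Slc29a1, the equilibrative nucleoside transporter, with -0.56 and -0.91 (limma adjusted p = 0.0870). Slc14a1, the urea transporter of red cells, was nearly equal on both arrays at -0.66 and -0.67 (limma adjusted p = 0.0853). Slc6a12, a carrier of betaine and GABA, had 1.55 and 0.59, and Slc19a1, the reduced folate carrier, -0.27 and -1.04. Limma called 0 genes of the Slc35, nucleoside, vitamin, fatty acid and choline, urea and heme, and neurotransmitter classes. At an unadjusted p under 0.05 these held 7, 2, 1, 0, 1 and 3 genes.

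**Figure D3:**
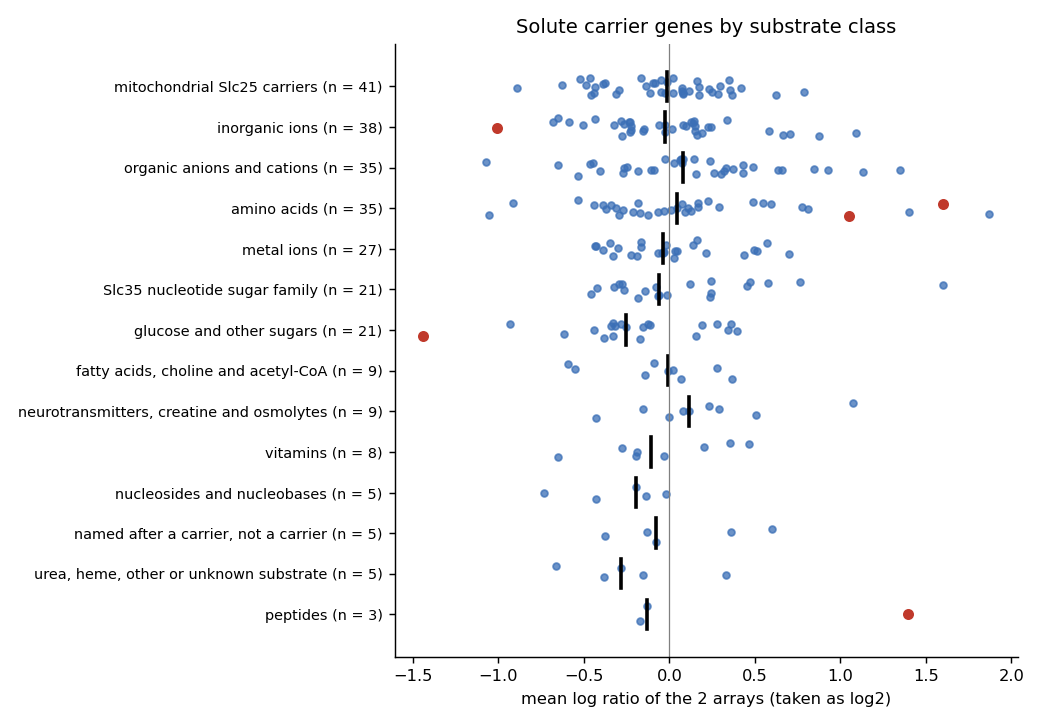
Mean log ratio of both arrays (taken as log2, x axis) of each solute carrier gene, 1 point per gene, by substrate class (rows), with class medians as black bars and the 5 called genes in red. The sugar carriers have a median of -0.25, while the amino acid, inorganic ion and mitochondrial carriers are centred near 0.

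Carriers known from hepatocytes, colonic epithelium and macrophages were looked at in lists. Colon26 is a colon carcinoma line, so the colonic lists need not mark host cells. Of 16 hepatocyte carriers, 11 were measured on both arrays, with a median of -0.29 and 0 called by limma (2 at an unadjusted p under 0.05). On the negative side in each array lay 7 of the 11 (63.6%, against 38.2% of all genes), while 1 (Slc38a4) was positive and 3 were mixed. Slc2a2 and Slc30a10, also on this list, were read on array 2 only, at 1.56 and 1.39. Of 12 general hepatocyte markers, 8 were measured, with 2 positive and 3 negative on both arrays, a median of -0.02 and array medians of -0.03 and -0.06. Colonic epithelium carriers (8 of 11 measured, Slc51a and Slc51b included) had a median of 0.10, with 4 positive and 2 negative on both arrays. The colonic list also holds Slc26a3, read on array 1 only at 2.41, and Slc5a8, read on array 2 only at 1.41. General colonic epithelium markers (7 of 9 measured) had a median of -0.36, with 3 positive and 4 negative on both arrays. Macrophage carriers (5 of 7) had a median of -0.02 and macrophage markers (6 of 9) 0.05, with 3 of the 6 markers positive and 3 negative on both arrays. Slc46a1, a listed macrophage carrier read on array 2 only, had 0.28. Limma called 0 genes of these lists except Cd14, a macrophage marker, at -1.43 and -0.96. This call makes 16.7% of the 6 macrophage markers, against 0.777% of all genes on that side. Cd68 and Csf1r lay on the side of Cd14, with -0.21 and -0.19, and -0.19 and -0.27. The macrophage markers Fcgr1, Cd163 and Clec4f lay on the other side, with 0.75 and 1.48, 0.39 and 0.93, and 0.32 and 0.30. At an unadjusted p under 0.05 the colonic and macrophage carrier lists held 3 and 1 genes, and the hepatocyte, colonic epithelium and macrophage marker lists 3, 2 and 3. The table holds ratios only, so whether a marker is at or near 0 in a tissue is not shown, and the part of host cells in any carrier's ratio was not tested.

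Carriers of neurons and glia (3 of 9 measured), of red cells (4 of 5) and of muscle and fat (4 of 4) had medians of -0.16, -0.20 and -0.53. Slc1a3, on the neuron and glia list but read on array 2 only, had 1.83. The 1 called gene among these 3 lists was Slc24a2, listed with muscle and fat although it is known from neurons. The endothelial markers were positive on both arrays in 7 of 7 measured (33.9% of all genes were), with a median of 0.54, and limma called 2 of them (2.12% of all genes on that side). Fibroblast and matrix markers were negative on both in 5 of 6 (38.2% of all genes), with a median of -0.42. Limma called 1 of them (16.7%, against 0.777% of all genes on that side), Col1a1, with -2.80 and -3.05. Col1a2 had -0.38 and -0.11. Lymphocyte markers had a median of 0.34 over 8 genes. The part of these cell types in the carriers' ratios was not tested.

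Carriers under other names gave 1 further call. Of 25 listed, 16 were measured, with a median of 0.06. The call makes 6.25% of the 16, against 2.9% of all genes. In limma's test 6 (37.5%) had an unadjusted p under 0.05, against 27.5% of all genes. Slco4a1, an organic anion carrier of the Slco family, had -1.31 and -1.01 and passed (limma adjusted p = 0.0448). Its relative Slco5a1 had 0.91 and 0.93 and did not pass, and Slco2a1, a prostaglandin carrier, had -0.55 and -0.36. Mfsd2a, a carrier of lysophospholipids, had -0.52 and -1.31. Of 16 partners and regulators of carriers, 12 were measured, 4 being positive and 4 negative on both arrays. Limma called 0 of these, with 5 at an unadjusted p under 0.05.

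Set beside other membrane transport genes, the carriers had the lowest share of calls. Limma called 5 of 78 ABC transporters, ATPase pumps and aquaporins (6.41%) and 8 of 154 ion channels (5.19%). The share was 1.91% for the carriers and 2.9% over all genes. The ABC transporters, pumps and aquaporins had a median of -0.04 and the ion channels -0.05. The difference between these groups was not tested.

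Members with a value on 1 array only were mostly far on the positive side. The 17 with a value on array 1 only ran from -0.10 to 2.41 with a median of 1.39, and 10 of them were at least 1. The 16 with a value on array 2 only ran from -0.28 to 2.22 with a median of 1.34, and 10 of them were at least 1. None of the 33 reached -1. Among them were Slc26a3, the chloride and bicarbonate exchanger of colonic epithelium (2.41 on array 1), Slc22a3, an organic cation carrier (2.22 on array 2), and Slc2a2, the glucose carrier of hepatocytes (1.56 on array 2). Slc7a1, a carrier of arginine and lysine, had 1.39 on array 1, and Slc2a3, a glucose carrier, 0.41 on array 1. The same held over all named probes, with medians of 0.94 for 596 probes on array 1 only and 0.74 for 924 on array 2 only, against -0.02 and -0.03 for probes with both values. These genes entered no test.

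**Figure D4:**
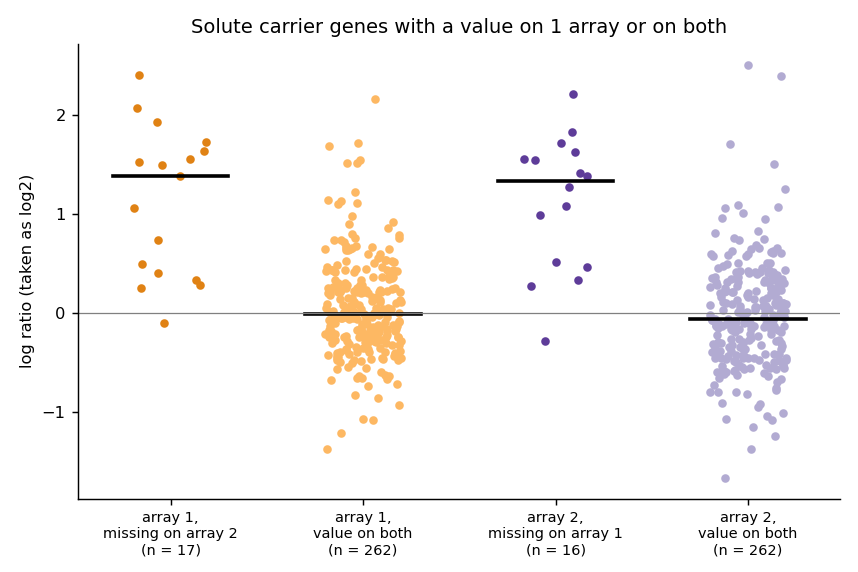
Log ratio (taken as log2, y axis) of solute carrier genes on array 1 and array 2, split by whether the other array gave a value, 1 point per gene with medians as black bars. Genes with 1 value have medians of 1.39 and 1.34, while those with both have -0.01 and -0.05.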

How the data were processed

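The members and gene lists were chosen with earlier results of these data known. RNA of Colon26 liver metastases and primary tumours was amplified and coupled to dyes, per the labels' protocols. The authors' deposited table gives 1 log ratio per probe and array, taken here as log2. Base 2 is assumed, and the sources used here state neither the base nor the numerator, background correction, filter or normalization. Intensities were not analysed here, and the 2 arrays limit the precision.

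Probes with both values (18837 of 23473) were named through the platform annotation, old symbols were updated through unique synonyms in RefSeq (GRCm38.p6), and probes were averaged per gene. Limma 3.58.1 in R 4.3.3 (intercept, eBayes, 1 residual and 4.06 prior degrees of freedom) tested each ratio against 0 over 13506 genes, with Benjamini-Hochberg adjustment at 0.05. The scripts were tested on simulated data. They recovered 9.09% of genes with a true size of 1, 89.6% at 2 and 97.0% at 3, with 4 false calls. A count of 0 called genes therefore does not show that ratios of size 1 were absent. Turning signs of 2 arrays cannot give a two-sided p below 0.5. Substrate classes follow known substrates, by family number or, where a family such as Slc5 or Slc6 spans several classes, by gene. Slc6a19os, Slc66a2 and Slc43a3 were moved to other classes once the measured genes were listed, and Slc4a1ap after its value was seen. A rule selected called members, the 12 per side and up to 4 per class farthest from 0 on their weaker array with the same sign on both, and list members. The text names the called members, the 12 per side and some of the rest, which were picked with their values known. The other genes named, including those with wide gaps between arrays or a value on 1 array, were chosen after their values were seen.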

Additional observations from a re-analysis of the deposited data

How the results depend on the processing

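Of the 5 called carriers, Slc38a1 kept its call in 6 of the 8 alternatives that could change one, Slc2a6 in 4, Slc15a2 and Slc6a7 in 1 each (centring) and Slc24a2 in 0. Reading the ratios as natural logs cannot change a call and is not counted. Limma's count of called carriers was 4 after centring, 2 after scaling to equal spread, with robust eBayes or with genes of 1 probe only, 1 when fitted on probes (Slc38a1) or with a minimum fold of 1.2, and 0 after quantile normalization or without moderation, where 71 and 33 carriers had an unadjusted p under 0.05. Over all genes the calls numbered 4 and 0 in those last settings. With ratios read as natural logs, 17 carriers instead of 4 reached 1 log2 unit on both arrays, and 1 array alone gave 15 to 17. The medians of amino acid, inorganic ion and organic ion carriers were 0.0683, -0.00103 and 0.104 after centring. As natural logs they were 0.0633, -0.0368 and 0.115, and that of sugar carriers was -0.363. Amino acid and organic ion carriers had 0.0211 and 0.0944 after quantile normalization. After scaling, inorganic ion, mitochondrial and organic ion carriers had -0.00648, 0.0222 and 0.123, so the mitochondrial median changed sign. With 1 array left out, medians ran from 0.0866 to 0.11 for amino acid, -0.2 to -0.128 for sugar, -0.0792 to -0.065 for inorganic ion, -0.0663 to 0.04 for Slc35 and 0.0785 to 0.09 for organic ion carriers. The cause of these shifts was not tested. The direction of every called carrier stayed the same in all alternatives run. Each had the same sign on both arrays and lay far from 0, so these settings could hardly reverse it and nothing is concluded from this. No paired analysis was possible because each array is 1 ratio of both tissues and there is 1 group.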

Other observations

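The solute carriers with a value on 1 array only had other ratios than those with both. Of the 33, 20 lay at 1 or more and 0 at -1 or less, while over all named probes with 1 value 47.5% on array 1 and 39.1% on array 2 lay at 1 or more, against 4.29% and 4.48% of the probes with both. Tests of ratios on both arrays leave these genes out, among them the colonic exchanger Slc26a3 (2.41), the short-chain fatty acid carrier Slc5a8 (1.41) and the hepatocyte zinc and manganese exporter Slc30a10 (1.39). Why the other array gave no value was not tested.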
